A study of Mus musculus with 12 samples.

Results

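Fatty acid transporters, binders and a fatty acid receptor were followed as a group of 10 genes, Cd36, Fabp1, Fabp2, Fabp3, Fabp4, Fabp5, Slc27a1, Slc27a2, Slc27a4 and Ffar4. They were chosen by name, as the probe sets whose gene symbol is one of these, and each of the 10 was read by 1 probe set out of 22206 tested, of which 19572 carry a symbol. RNA of the liver (LIV) and of the inguinal subcutaneous fat (SAT) came from 6 male C57BL/6N mice, 1 array for each tissue of each mouse. HFD + LY mice (animals 16, 18 and 20) received the S6K1 inhibitor LY2584702 tosylate (LY) by gavage at 25 mg/kg every 12 h for 12 weeks, and HFD mice (animals 8, 11 and 14) received vehicle on the same schedule. S6K1 is a ribosomal protein S6 kinase that acts below mTORC1 and is known for its part in fat cell formation. All 6 mice were 8 weeks old at the start and received a high-fat diet, 60% of kcal being fat, in the last 10 weeks, so every value stands on a high-fat diet and no chow-fed mouse entered the comparisons. The values are log2 RMA signals, a scale on which 1 unit is a doubling, and they allow a gene to be compared between arrays but not with another gene.

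Long-chain fatty acids reach cells bound to albumin or freed from lipoproteins, and membrane proteins such as CD36 and the SLC27 family speed their entry. The SLC27 proteins also join the acid to coenzyme A, which traps it in the cell, and the small FABP proteins carry the acid through the cytosol. Adipocytes are rich in CD36 and FABP4, hepatocytes rely on FABP1 and SLC27A2, and CD36 of the liver is known to be raised in fatty liver of obese mice. PPARG and PPARA are nuclear receptors that sense fatty acids, pair with RXR and act on several of these genes through a repeat of the letters AGGTCA.

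The sequence before the transcript start was read for this repeat because several members have been described as targets of the PPAR receptors. RefSeq on GRCm38.p6 gave the 250 bases before a listed start for 8 of the 10 members, in 10 windows, 3 of them for Slc27a1, and none was found for Fabp4 and Fabp5. The motif searched was AGGTCA, 1 base of any kind and AGGTCA again, on both strands with at most 2 mismatches, and no other motif was searched. It was found before Cd36, with 2 mismatches, and before Fabp1, with 1 mismatch, and in none of the other windows of the members. Of all 32851 windows of this length, 3.24% held such a match and 0.484% held one with at most 1 mismatch. A match is a description of letters, not a bound site. Shown are the windows of Cd36 (chr5:17835897-17836146, minus strand) and Fabp1 (chr6:71199629-71199878, plus strand), which hold a match, and those of Slc27a1 (chr8:71568621-71568870, plus strand, the first of its windows) and Ffar4 (chr19:38096829-38097078, plus strand), which hold none and whose genes, like Cd36, had lower signals in LIV of HFD + LY mice. Each window ends at a transcript start listed in RefSeq, which for Cd36 and Slc27a1 is not the start of the whole gene. Capitals mark the match, on the opposite strand in both genes and ending 51 bases before that start in Cd36 and 55 bases before it in Fabp1.
Cd36: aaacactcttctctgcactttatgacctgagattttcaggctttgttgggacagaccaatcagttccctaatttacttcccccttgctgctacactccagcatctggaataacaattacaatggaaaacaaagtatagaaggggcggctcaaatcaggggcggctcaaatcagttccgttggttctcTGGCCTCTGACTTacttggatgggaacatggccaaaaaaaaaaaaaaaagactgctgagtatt
Fabp1: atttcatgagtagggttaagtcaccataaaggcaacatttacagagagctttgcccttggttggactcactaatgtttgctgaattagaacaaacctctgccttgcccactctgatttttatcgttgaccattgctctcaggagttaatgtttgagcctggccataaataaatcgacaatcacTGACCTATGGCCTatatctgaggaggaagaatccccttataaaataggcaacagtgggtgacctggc
Slc27a1: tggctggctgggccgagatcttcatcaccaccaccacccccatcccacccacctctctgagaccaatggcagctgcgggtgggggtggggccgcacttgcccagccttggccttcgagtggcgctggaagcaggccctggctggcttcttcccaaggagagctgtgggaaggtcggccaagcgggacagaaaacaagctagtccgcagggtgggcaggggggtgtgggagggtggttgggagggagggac
Ffar4: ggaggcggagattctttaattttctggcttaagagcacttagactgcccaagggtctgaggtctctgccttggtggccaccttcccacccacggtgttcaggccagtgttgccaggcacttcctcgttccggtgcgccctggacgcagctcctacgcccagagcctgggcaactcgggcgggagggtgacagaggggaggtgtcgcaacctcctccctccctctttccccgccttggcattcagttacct

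The labelled tissues carried their defining genes. The mean signal of 7 hepatocyte genes, among them Alb and Ttr, was 13.79 to 13.84 over the LIV arrays and 7.63 to 7.93 over the SAT arrays, and that of 6 adipocyte genes was 7.58 to 7.90 in LIV and 13.13 to 13.39 in SAT. The SAT of HFD + LY animal 20 and of HFD animal 11 stood apart through skeletal muscle genes. The mean of 12 such genes was 12.9 in HFD + LY animal 20, with 8.02 and 8.14 in HFD + LY animals 16 and 18, and 13.5 in HFD animal 11, with 8.14 and 9.61 in HFD animals 8 and 14. The medians of the 12 arrays lay between 8.16 and 8.28. The number of arrays limits the precision, and with 3 mice a group the smallest p of an exact permutation test, two-sided, is 0.1.

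The first comparison asked where each member is carried, in LIV or in SAT, over all 6 mice. All 10 members differed between LIV and SAT at an adjusted p under 0.05 by limma (Benjamini-Hochberg adjustment, run over every probe set tested), 4 higher and 6 lower in LIV. The tissues differ so widely that 59.9% of all probe sets tested passed the same threshold, 30.7% higher and 29.2% lower in LIV.

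Among the membrane proteins, Cd36, the fatty acid translocase, had signals of 8.80 to 10.18 in LIV and 13.06 to 13.34 in SAT, a difference of -3.70 (standard error 0.11, adjusted p = 5.64e-12 by limma). Slc27a1, an insulin-responsive transporter of fat and muscle, had 9.08 to 9.93 in LIV and 12.95 to 13.29 in SAT, and likewise differed by -3.70 (standard error 0.090, adjusted p = 1.06e-12 by limma). Slc27a2, the very long-chain acyl-CoA synthetase and transporter of liver and kidney, lay the other way, at 13.14 to 13.28 in LIV and 5.65 to 6.49 in SAT. Its difference of 7.10 (standard error 0.11) had an adjusted p of 1.53e-14 by limma. Slc27a4, a broadly carried transporter best known from the intestine, was nearly level, with 9.33 to 9.64 in LIV and 9.21 to 9.51 in SAT. Its difference of 0.19 (95% interval 0.031 to 0.35, adjusted p = 0.0392 by limma) was small beside the others and its tissues overlapped.

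The binding proteins parted by tissue. Fabp1, the liver form, had 14.29 to 14.38 in LIV and 5.76 to 7.25 in SAT, a difference of 7.92 (standard error 0.16, adjusted p = 1.63e-13 by limma). Fabp2, the intestinal form, had 12.35 to 12.63 in LIV and 6.17 to 6.78 in SAT, and differed by 6.08 (standard error 0.10, adjusted p = 2.33e-14 by limma). The adipocyte form Fabp4 and Fabp5, a form of skin, adipocytes and macrophages, lay on the SAT side. Fabp4 had 9.71 to 10.51 in LIV and 13.91 to 14.53 in SAT, a difference of -4.31 (standard error 0.11, adjusted p = 1.13e-12 by limma). Fabp5 had 7.13 to 7.96 in LIV and 11.09 to 12.52 in SAT, a difference of -4.07 (standard error 0.19, adjusted p = 7.15e-10 by limma). Ffar4, a G protein-coupled receptor for long-chain fatty acids, had 6.69 to 7.18 in LIV and 9.11 to 9.52 in SAT, a difference of -2.42 (standard error 0.073, adjusted p = 9.93e-12 by limma).

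Fabp3, the form of heart and skeletal muscle, had 7.86 to 8.28 in LIV and 8.10 to 12.59 in SAT, and the tissues overlapped. Its difference was -1.85 (standard error 0.73, adjusted p = 0.0444 by limma). The difference stayed negative with each mouse left out, at -2.23 to -1.17, but its call did not always hold. It did not pass with animal 11 left out (-1.22), nor with animal 14 (-2.10) or animal 20 (-1.17) left out. Without the SAT arrays of animals 11 and 20, a setting chosen after seeing the data, it was -0.59 (adjusted p = 0.00842 by limma). Slc27a4 kept its call in 2 of 6 cases, without animal 8 or 20, and not without animal 11, 14, 16 or 18, with differences of 0.15 to 0.23 over the 6 cases. The other 8 members kept their call whichever mouse was left out, and of these no LIV array overlapped a SAT array, which held for 38.4% of all probe sets. In SAT, Fabp1, Fabp2 and Slc27a2 averaged below 7.03, the lower quartile of all probe sets there, in both groups, and in LIV Ffar4 averaged below the lower quartile of 7.09. Such signals were not told apart from background here, so the sizes of the differences of these 4 genes between the tissues stand as lower bounds.

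**Figure D1:**
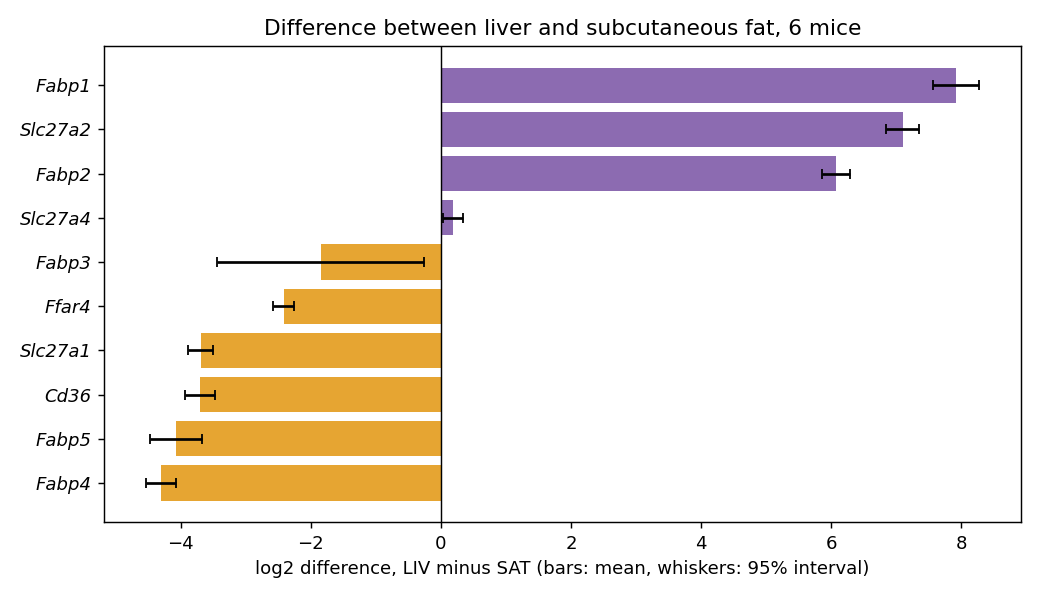
Difference between LIV and SAT of each member on the log2 scale, as bars with 95% intervals over 6 mice, ordered by size. Fabp1, Slc27a2 and Fabp2 lie at least 6.08 to 7.92 units higher in LIV (lower bounds, as is the size for Ffar4), Fabp4, Fabp5, Cd36, Slc27a1 and Ffar4 lie lower, at -4.31 to -2.42, and the interval of Fabp3 runs from -3.44 to -0.26.

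The second comparison asked what LY changed in the liver. Of the 10 members, 4 were lower in LIV of HFD + LY mice than of HFD mice at an unadjusted p under 0.05 by limma, and 0 were higher. These were Cd36, Slc27a1, Fabp4 and Ffar4, and in each the arrays of HFD + LY and HFD mice did not overlap. Over all probe sets, 6.9% passed the unadjusted threshold (3.94% lower, 2.96% higher), and 12.5% had groups without overlap (6.89% with HFD + LY lower). After this adjustment 0 members passed, with a smallest adjusted p of 0.441, while 0.0045% of all probe sets did. Since the study itself draws attention to Cd36, Ffar4 and Slc27a1 in liver of LY-treated mice, their presence in the count is not independent evidence. In a bulk sample, fewer cells of a type and less RNA per cell cannot be told apart.

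Cd36 had the lowest difference of the members in LIV. Its log2 signals were 8.97, 9.28 and 8.80 in HFD + LY animals 16, 18 and 20, against 10.18, 9.65 and 10.10 in HFD animals 8, 11 and 14. Every HFD + LY liver was thus below every HFD liver, with 0.37 units between the nearest of them, animals 18 and 11. The means were 9.02 ± 0.24 in HFD + LY mice and 9.98 ± 0.29 in HFD mice (SD, n = 3 each). The difference was -0.96 (standard error 0.17, 95% interval -1.34 to -0.57, unadjusted p = 0.000358 and adjusted p = 0.441 by limma), or 0.514 times the signal of HFD mice (95% interval 0.394 to 0.671). Leaving out each mouse in turn gave -1.12 to -0.85, and the unadjusted call held in 6 of 6 cases.

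Slc27a1 was the other membrane protein with a lower signal. It had 9.08, 9.38 and 9.13 in livers of HFD + LY animals 16, 18 and 20, against 9.93, 9.59 and 9.54 in those of HFD animals 8, 11 and 14. The groups were 0.16 units apart at their nearest arrays, less than the range of 0.39 within the HFD group. The difference was -0.49 (standard error 0.13, 95% interval -0.79 to -0.19, unadjusted p = 0.00533 and adjusted p = 0.685 by limma), and it stayed between -0.58 and -0.37 with each mouse left out, with the unadjusted call held in 6 of 6 cases. In Slc27a2 and Slc27a4 the groups overlapped. Slc27a2 had 13.26, 13.22 and 13.21 in HFD + LY livers, against 13.28, 13.14 and 13.18 in HFD livers (difference 0.030, 95% interval -0.17 to 0.23, unadjusted p = 0.737 by limma). Slc27a4 had 9.55, 9.64 and 9.33 in HFD + LY livers, against 9.54, 9.42 and 9.51 in HFD livers (difference 0.015, 95% interval -0.23 to 0.26, unadjusted p = 0.892 by limma).

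Fabp4, the adipocyte binding protein, also found in macrophages, had 10.02, 9.73 and 9.71 in livers of HFD + LY animals 16, 18 and 20, against 10.51, 10.08 and 10.12 in those of HFD animals 8, 11 and 14. HFD + LY animal 16 and HFD animal 11 were separated by 0.062 units only. The difference was -0.42 (standard error 0.14, 95% interval -0.74 to -0.094, unadjusted p = 0.0172 and adjusted p = 0.687 by limma). It no longer passed with HFD animal 8 left out (-0.28) or with HFD + LY animal 20 left out (-0.36).

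Ffar4, the receptor, had 6.73, 6.69 and 6.85 in livers of HFD + LY animals 16, 18 and 20, against 6.87, 7.15 and 7.18 in those of HFD animals 8, 11 and 14. These are dim signals, and 0.017 units separated HFD + LY animal 20 from HFD animal 8. The difference was -0.31 (standard error 0.11, 95% interval -0.56 to -0.054, unadjusted p = 0.0230 and adjusted p = 0.707 by limma). Its call was the least steady of the 4, lost without animal 11, 14, 16 or 18, at -0.27, -0.25, -0.29 and -0.27, and kept in 2 of 6 cases.

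The binding proteins that lay on the LIV side did not pass. Fabp1 had 14.38, 14.29 and 14.31 in HFD + LY livers, against 14.38, 14.29 and 14.29 in HFD livers, a difference of 0.0051 (95% interval -0.19 to 0.20, unadjusted p = 0.955 by limma). Fabp2 had 12.44, 12.35 and 12.57 in HFD + LY livers, against 12.60, 12.50 and 12.63 in HFD livers, a difference of -0.12 (95% interval -0.34 to 0.096, unadjusted p = 0.233 by limma). The livers of both groups overlapped in both genes. Fabp3 differed by -0.0025 (95% interval -0.31 to 0.31) and Fabp5 by -0.22 (95% interval -0.62 to 0.17, unadjusted p = 0.225 by limma), again with overlap. Over the 10 members the median difference in LIV was -0.17 and 7 were below 0, beside a median of -0.0066 and 51.9% below 0 over all probe sets.

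Genes of other cell types were read in the same livers. The mean of the adipocyte list was 7.58 to 7.63 in HFD + LY livers and 7.79 to 7.90 in HFD livers, and 2 of its 6 measured genes were lower at an unadjusted p under 0.05 by limma. These were Cidec, a lipid droplet protein that fatty liver also carries (difference -0.50), and Lep, which encodes leptin (difference -0.37). Lep was dim and its groups overlapped, at 6.53 to 6.80 in HFD + LY livers and 6.75 to 7.21 in HFD livers. Adipoq, which encodes adiponectin, was also dim, at 6.25 to 6.38 in HFD + LY livers and 6.39 to 6.72 in HFD livers. The mean of the macrophage list was 8.23 to 8.52 in HFD + LY livers and 8.51 to 8.74 in HFD livers, with 2 of 8 measured genes lower, C1qa (difference -0.50) and C1qb (difference -0.30), both complement genes of macrophages. These 4 genes had adjusted p-values of 0.685 to 0.707 by limma, beside the 3.94% of all probe sets that were lower at the unadjusted threshold. The brown adipocyte list had a mean of 8.24 to 8.32 in HFD + LY livers and 8.37 to 8.51 in HFD livers. Its highest genes there were Elovl3 (11.64 and 11.60 in HFD + LY and HFD livers) and Ppargc1a (10.68 and 10.82), while Ucp1 had 5.93 and 6.08. Of its 6 genes 1 was lower, Dio2, a thyroid hormone deiodinase (difference -0.31, unadjusted p = 0.0235 and adjusted p = 0.707 by limma). Dio2 was dim in HFD + LY livers, at 6.86 to 6.99, against 7.10 to 7.44 in HFD livers. The endothelial list had a mean of 8.48 to 8.82 in HFD + LY livers and 8.62 to 8.77 in HFD livers, with 0 of 6 genes lower, and the hepatocyte list one of 13.82 to 13.84 in HFD + LY livers and 13.79 to 13.82 in HFD livers. The part of these cells in the differences of Cd36, Slc27a1, Fabp4 and Ffar4 was not tested.

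**Figure D2:**
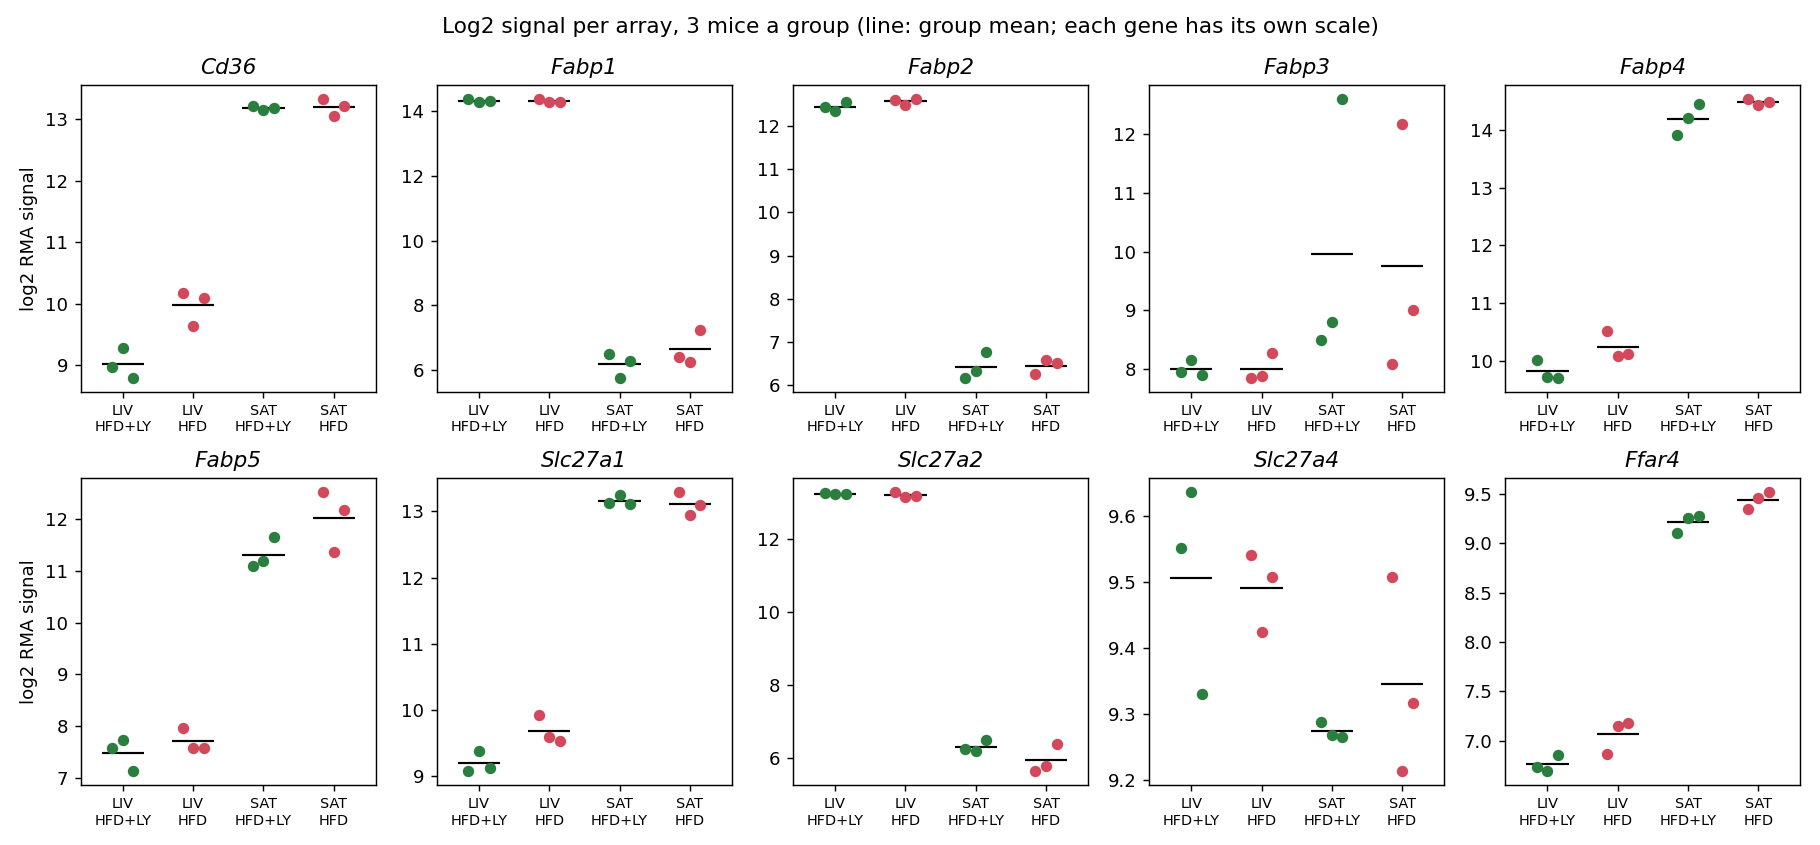
Log2 RMA signal of each member (vertical axis, a scale of its own in each panel) in LIV and SAT, 1 point for each mouse and a line at the mean of 3 mice. The 3 HFD + LY livers lie below the 3 HFD livers for Cd36, Slc27a1, Fabp4 and Ffar4, and Fabp3 in SAT spreads from 8.10 to 12.59.

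The third comparison asked the same of the subcutaneous fat. There limma called 1 of the 10 members at an unadjusted p under 0.05, Fabp5, as lower in HFD + LY mice, and 0 as higher, where 5.05% of all probe sets passed (3.19% lower, 1.86% higher). By real-time PCR the study itself reports for Fabp5 a trend like that of genes less expressed in SAT of HFD + LY mice. This call is therefore not independent evidence. After Benjamini-Hochberg adjustment 0 members and 0% of all probe sets passed, and the smallest adjusted p of a member was 0.963. The median difference of the members was -0.045, with 7 of 10 below 0, beside a median of -0.0048 and 51.5% below 0 over all probe sets.

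Fabp5 had 11.09, 11.19 and 11.66 in SAT of HFD + LY animals 16, 18 and 20, against 12.52, 11.36 and 12.17 in SAT of HFD animals 8, 11 and 14. HFD animal 11, one of the mice with muscle signal in SAT, was lower than HFD + LY animal 20, the other, so the groups overlapped. The difference was -0.70 (standard error 0.29, 95% interval -1.37 to -0.041, unadjusted p = 0.0400 and adjusted p = 0.963 by limma). It no longer passed without HFD animal 8 (-0.45) or 14 (-0.63) or HFD + LY animal 16 (-0.59) or 18 (-0.64). With the SAT arrays of animals 11 and 20 both left out, a setting chosen after seeing the data that keeps 2 mice a group, the difference was -1.20 (unadjusted p = 3.31e-05 and adjusted p = 0.0112 by limma). In that setting 573 of 22206 probe sets passed the adjusted threshold and 4045 the unadjusted one, against 0 and 1121 with all SAT arrays, so the gain was not peculiar to Fabp5.

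Fabp4 and Ffar4 had negative differences in SAT that did not pass. Fabp4 had 13.91, 14.20 and 14.44 in HFD + LY animals 16, 18 and 20, against 14.53, 14.43 and 14.48 in HFD animals 8, 11 and 14, with HFD + LY animal 20 just above HFD animal 11. The difference was -0.30 (95% interval -0.62 to 0.023, unadjusted p = 0.0649 by limma), and -0.45 (unadjusted p = 0.00664 and adjusted p = 0.109 by limma) without the SAT arrays of animals 11 and 20. It was -0.084 (unadjusted p = 0.353 by limma) after quantile normalization within the tissue. With 1 mouse left out it ran from -0.43 without HFD + LY animal 20, where it passed the unadjusted threshold, to -0.16 without HFD + LY animal 16. Ffar4 had 9.11, 9.26 and 9.28 in HFD + LY animals 16, 18 and 20, against 9.35, 9.46 and 9.52 in HFD animals 8, 11 and 14. The groups of Ffar4 did not overlap in SAT, as in 9.49% of all probe sets (5.48% with HFD + LY lower). The difference was -0.23 (95% interval -0.46 to 0.0012, unadjusted p = 0.0509 by limma).

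In SAT, where both are carried most, Cd36 and Slc27a1 had differences near 0 on these arrays. For Cd36 this is unlike the study's real-time PCR. There Cd36 is said to follow a trend like that of genes less expressed in SAT and visceral fat of HFD + LY mice. Its abstract speaks of impaired Cd36 expression in fat and liver. The study also lists Cd36 among genes affected in SAT, visceral fat or both when mice already obese received LY. The reason for this disparity was not tested. Cd36 had 13.22, 13.16 and 13.18 in SAT of HFD + LY mice, against 13.34, 13.06 and 13.21 in SAT of HFD mice, a difference of -0.015 (95% interval -0.25 to 0.22, unadjusted p = 0.888 by limma). Slc27a1 had 13.13, 13.24 and 13.11 in SAT of HFD + LY mice, against 13.29, 12.95 and 13.10 in SAT of HFD mice, a difference of 0.046 (95% interval -0.21 to 0.31, unadjusted p = 0.694 by limma). The groups overlapped in both genes, and neither interval reached the LIV difference of the same gene, -0.96 for Cd36 and -0.49 for Slc27a1. Slc27a4 differed by -0.072 (95% interval -0.31 to 0.17), Fabp2 by -0.018 (95% interval -0.41 to 0.37), Fabp1 by -0.46 (95% interval -1.11 to 0.19) and Slc27a2 by 0.37 (95% interval -0.086 to 0.82), the last 3 of these being genes of dim signal in fat. Without HFD animal 14 the difference of Fabp1 was -0.15 and that of Slc27a2 was 0.60 (unadjusted p = 0.00330 by limma). Slc27a2 also passed the unadjusted threshold in 1 fit for all arrays (unadjusted p = 0.0402 by limma), and its difference was 0.22 without HFD animal 8.

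**Figure D3:**
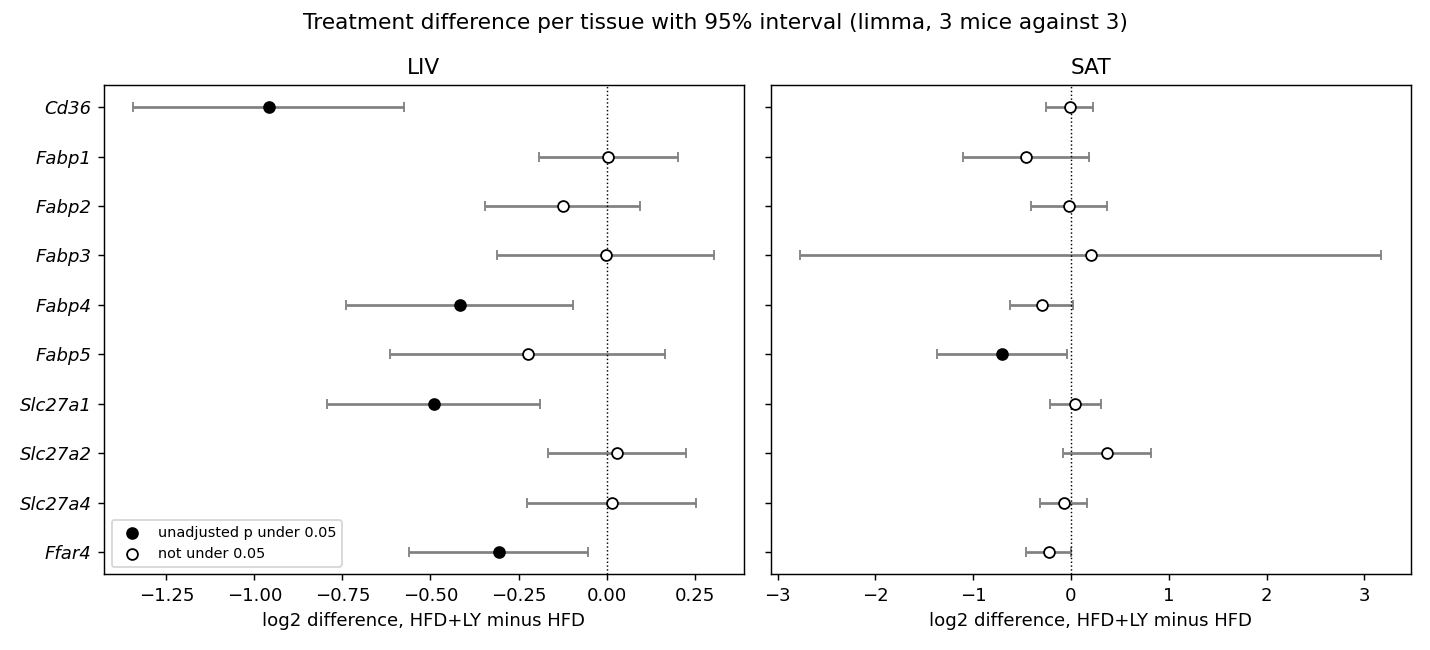
Difference between HFD + LY and HFD mice of each member on the log2 scale, with its 95% interval, in LIV (left) and SAT (right), 3 mice against 3, on axes of unequal width. Filled points mark an unadjusted p under 0.05: Cd36, Fabp4, Slc27a1 and Ffar4 in LIV and Fabp5 in SAT.

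Fabp3 was the member that varied most in SAT. It had 8.49, 8.80 and 12.59 in HFD + LY animals 16, 18 and 20, against 8.10, 12.16 and 9.02 in HFD animals 8, 11 and 14. The highest values were those of animals 20 and 11, the mice whose SAT held the most muscle signal, 1 in each group. The difference was 0.20 (95% interval -2.77 to 3.18, unadjusted p = 0.878 by limma), an interval too wide to read a direction from, and with each mouse left out it ran from -1.11 to 1.40. Without the SAT arrays of animals 11 and 20 it was 0.089 (unadjusted p = 0.752 and adjusted p = 0.907 by limma). With the mean of the 12 muscle genes as a covariate, also chosen after seeing the data, it was 0.77 (unadjusted p = 9.89e-05 and adjusted p = 0.122 by limma). Fabp3 is itself a gene of muscle and these 2 settings differ, so no effect of LY on Fabp3 is read from that value. For Cd36 the same 2 arrays had 13.18 in HFD + LY animal 20 and 13.06 in HFD animal 11, beside 13.16 to 13.34 in the other 4.

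**Figure D4:**
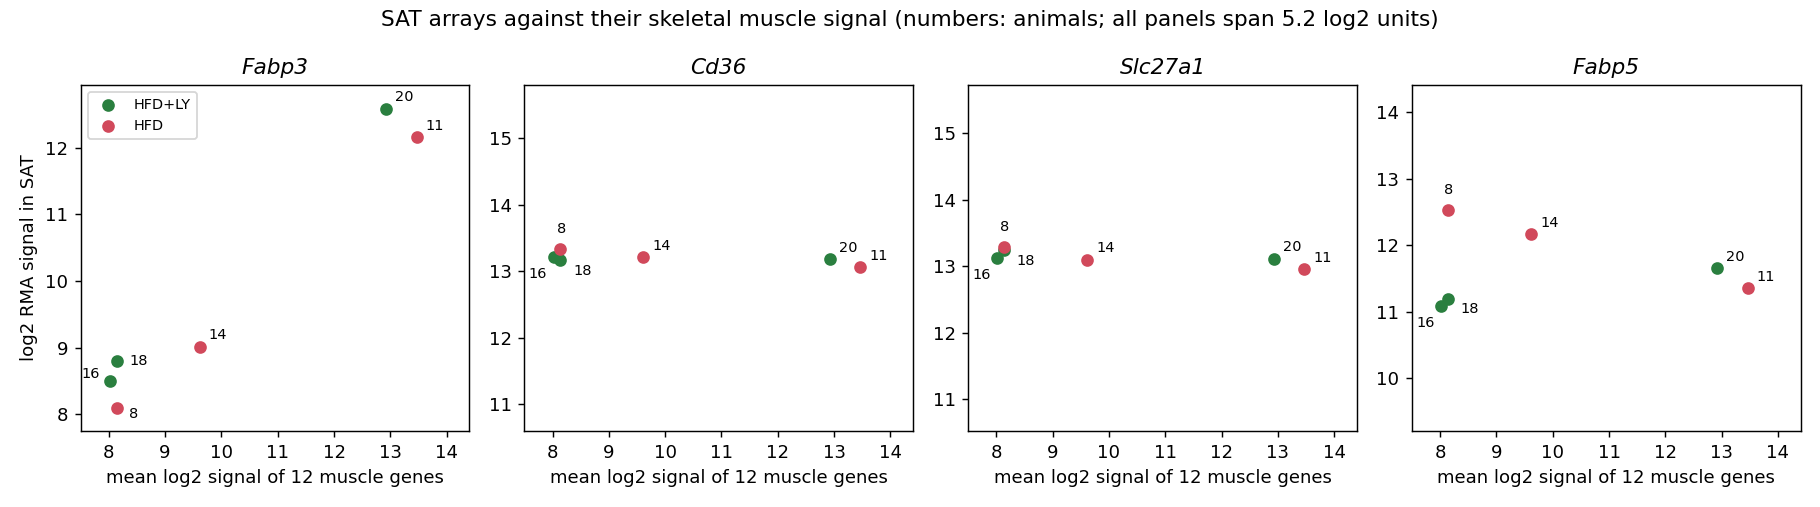
Log2 RMA signal in SAT (vertical axis, panels of equal height) against the mean log2 signal of 12 skeletal muscle genes (horizontal axis) for Fabp3, Cd36, Slc27a1 and Fabp5, with each point numbered by its mouse. Fabp3 is at 12.59 in HFD + LY animal 20 and 12.16 in HFD animal 11, the 2 mice at the right, and at 8.10 to 9.02 in the others.

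In the same SAT arrays limma called 2 of 6 measured genes of the adipocyte list as lower at an unadjusted p under 0.05, Adipoq (difference -0.22) and Retn, which encodes resistin (difference -0.22), with adjusted p-values of 0.971 and 0.975, beside 3.19% of all probe sets lower at that threshold, while the mean of the list was 13.17 to 13.22 in HFD + LY mice and 13.13 to 13.39 in HFD mice. The macrophage list had a mean of 9.02 to 9.07 in SAT of HFD + LY mice and 8.97 to 9.26 in SAT of HFD mice. Of its 8 measured genes 1 was lower and 0 were higher at that threshold. The lower one was Itgam (difference -0.56, unadjusted p = 0.00586 and adjusted p = 0.908 by limma). The part of these cells in the values of Fabp5, Fabp4 and Ffar4 was not tested.

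Whether the treatment difference itself was unlike in the tissues was tested as an interaction in limma over all 12 arrays. At an unadjusted p under 0.05, 2 of the 10 members passed, Cd36 and Slc27a1, both more negative in LIV than in SAT, where 6.21% of all probe sets passed (2.77% in that direction). For Cd36 the LIV difference minus the SAT difference was -0.94 (standard error 0.21, 95% interval -1.40 to -0.48, unadjusted p = 0.000732 and adjusted p = 0.364), and for Slc27a1 it was -0.54 (standard error 0.18, 95% interval -0.93 to -0.15, unadjusted p = 0.0112 and adjusted p = 0.756). Both kept this call in 6 of 6 cases with 1 mouse left out, at -1.09 to -0.84 for Cd36 and -0.60 to -0.50 for Slc27a1. After adjustment 0 members passed, beside 0.0405% of all probe sets. Fabp4 (-0.12, 95% interval -0.58 to 0.34), Ffar4 (-0.079, 95% interval -0.40 to 0.24) and Fabp5 (0.48, 95% interval -0.33 to 1.29) did not pass. For Fabp5 this depended on the arrays used, since it passed the unadjusted threshold without animal 11 (0.74, unadjusted p = 0.0375 by limma), with array weights (0.90, unadjusted p = 0.00816) and without the SAT arrays of animals 11 and 20 (0.98, unadjusted p = 0.00318). Fabp4 passed it after quantile normalization within each tissue (-0.36, unadjusted p = 0.0433 by limma).

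**Figure D5:**
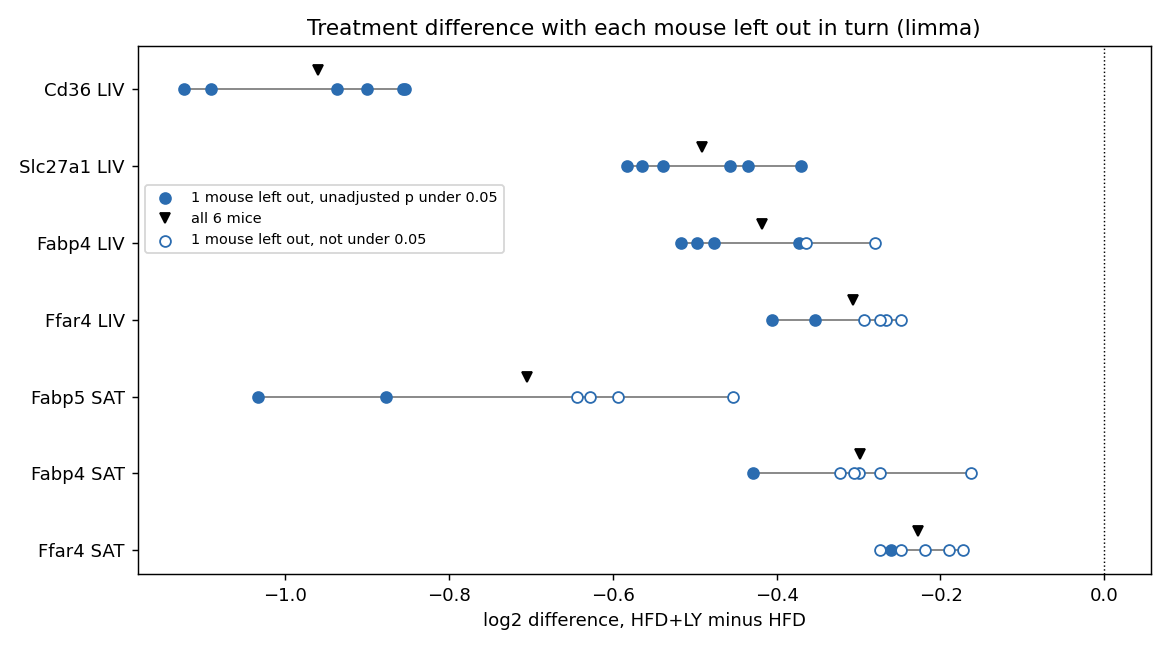
Difference between HFD + LY and HFD mice on the log2 scale with each of the 6 mice left out in turn (circles, filled where the unadjusted p stays under 0.05) beside the value of all mice (triangle). Cd36 in LIV stays between -1.12 and -0.85, while Fabp5 in SAT ranges from -1.03 to -0.45.

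The other genes of the pathway were taken from 7 lists of 51 genes, 43 of them measured. In LIV 3 of 43 were lower, 0 higher and 40 passed neither way at an unadjusted p under 0.05 by limma, and in SAT again 3 were lower, 0 higher and 40 neither. These shares lie near the 6.9% of all probe sets that passed in LIV and the 5.05% in SAT. After adjustment 0 passed in either tissue. Among other transport proteins, Mfsd2a, a carrier of lysophospholipids with long polyunsaturated chains, was lower in LIV, at 10.99 ± 0.41 in HFD + LY mice and 11.65 ± 0.32 in HFD mice (SD, n = 3 each, difference -0.67, unadjusted p = 0.0161 and adjusted p = 0.687 by limma), though the groups overlapped. The liver synthetase of bile acid conjugation, Slc27a5, differed by 0.012 in LIV, where it had 12.77 ± 0.049 in HFD + LY mice and 12.76 ± 0.045 in HFD mice (SD, n = 3 each). Got2, a mitochondrial transaminase also described at the plasma membrane as a fatty acid binder, differed by -0.024 in LIV and 0.17 in SAT.

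Lpl, the lipoprotein lipase that frees fatty acids for uptake, was lower in SAT, at 11.46 ± 0.15 in HFD + LY mice and 11.98 ± 0.065 in HFD mice (SD, n = 3 each). The groups did not overlap, and the difference was -0.53 (standard error 0.11, unadjusted p = 0.00120 and adjusted p = 0.759 by limma). In LIV it differed by -0.046. Gpihbp1, the capillary anchor of this lipase, was lower in LIV (difference -0.24, unadjusted p = 0.0456 by limma) with overlap. Cav2, a caveolin of the membrane pits in which CD36 lies, was lower in SAT (difference -0.39, unadjusted p = 0.0211 by limma), also with overlap. Fabp12, which RefSeq places in a row with Fabp5, Pmp2, Fabp9 and Fabp4, was lower without overlap in both tissues, by -0.24 in LIV and -0.33 in SAT (unadjusted p = 0.0392 and 0.0423 by limma), but its signal was dim, at 5.93 to 6.05 in HFD + LY livers and 6.14 to 6.40 in HFD livers. Fabp9 and Pmp2, between Fabp4 and Fabp5 in that row, passed in neither tissue.

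The nuclear receptors gave no call. Pparg, the receptor that drives fat cell formation, had 9.35 ± 0.48 in livers of HFD + LY mice and 9.35 ± 0.24 in those of HFD mice (SD, n = 3 each), a difference of -0.0021, and in SAT it differed by -0.039. By real-time PCR, a measure apart from these arrays, the study reports less Pparg in livers of HFD + LY mice. Ppara, the receptor of fatty acid oxidation in liver, differed by -0.11 in LIV and 0.24 in SAT. Of the 7 genes measured in the receptor list, Ahr among them, 0 passed an unadjusted p under 0.05 by limma in either tissue.

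For 4 members the genes with the most similar profile over the 12 arrays were sought among 19571 probe sets with a symbol, each centred on its own mean, by the root mean square difference in log2 signal. This is a description, since the arrays share 6 mice and 2 tissues. By this measure genes with a like gap between LIV and SAT lie near each other, whatever the treatment did. The profile nearest to Cd36 was that of Slc27a1, at 0.206 log2 units, followed by Prrx1 (0.215) and Lgals1 (0.243). Cd36 and Slc27a1 both differed by -3.70 between LIV and SAT. Fabp1 was nearest to Fgg (0.276), Serpina1b (0.316) and Akr1c6 (0.319), and Slc27a2 to Pzp (0.194), Sult2a8 (0.195) and Cyp2d26 (0.205). Fabp3 was nearest to Pfkm (0.333), Tpm2 (0.348) and Smpx (0.362), the enzyme phosphofructokinase of muscle, a tropomyosin and a small protein of striated muscle.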

How the data were processed

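RNA of LIV and SAT of 6 mice was read on 12 Affymetrix whole-transcript arrays. The authors processed the arrays with RMA, named with limma and without a version in the submitters' processing notes, so the deposited values are log2 signals, background-corrected, quantile-normalized over the arrays and summarized per probe set. Such normalization sets the arrays to like distributions and hides a shift common to all genes. The table holds 28846 probe sets, and 22206 were tested once 6640 control probe sets had been removed, with no filter on dim signals. All value columns were mapped to a sample (0 were not), and neither slides nor scan batches are given in the sources used here.

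Each tissue was fitted apart with limma 3.58.1 in R 4.3.3 (lmFit and eBayes, 4 residual degrees of freedom, 3 mice against 3), and LIV against SAT and the interaction were fitted on all 12 arrays (8 residual degrees of freedom). All p-values are two-sided and were adjusted by Benjamini-Hochberg over every probe set tested, at a threshold of 0.05. The fits were tested on simulated data. The study's methods speak of the same animals in both tissues, and the numbers in the labels match. Across genes, an animal's deviation from the group mean in LIV had a correlation of -0.067 to 0.21 with that in SAT. The animal as a block was therefore an alternative.

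Each member is read by 1 probe set, named through the platform annotation. Named were all 10 members, from each wider list the genes at an unadjusted p under 0.05 (at most 4 for each list and tissue), Lpl, Pparg, Ppara, Slc27a5 and Got2 whatever their values, and for Cd36, Fabp1, Fabp3 and Slc27a2 the 3 nearest profiles. The symbols of 43 of the 51 listed genes were found, and the others, Acsl1 among them, were not analysed here. The members, the lists and the rule were chosen with earlier results of these data known. The alternatives were a single fit of the 12 arrays, a prior with an intensity trend, quantile normalization within a tissue, median centring, removal of dim probe sets (under the lower quartile in every group), weighted arrays, the methods' t-test, the animal as a block, and each mouse left out in turn. After seeing the data, 2 more were added: SAT without the arrays of animals 11 and 20, and the muscle mean as a covariate. Promoter windows are from RefSeq on GRCm38.p6. The plots were made in Python 3.11.15 with matplotlib 3.10.9.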

Additional observations from a re-analysis of the deposited data

Results flagged for a closer look

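For 2 members the treatment difference was unlike in the tissues by the interaction test in limma at an unadjusted p under 0.05. For Cd36 the LIV difference minus the SAT difference was -0.94 on the log2 scale (unadjusted p = 0.000732, adjusted p = 0.364), with the 3 HFD + LY livers below the 3 HFD livers and no such order in SAT. For Slc27a1 it was -0.54 (unadjusted p = 0.0112, adjusted p = 0.756), likewise with 3 of 3 HFD + LY livers below every HFD liver. Neither passed the Benjamini-Hochberg adjustment over all probe sets. No formal test for a single outlying value was run on the members, since groups of 3 are too small for it.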

How the results depend on the processing

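The count of 4 members lower in LIV was 3 or 4 under every alternative run, with Fabp4 lost in the methods' t-test. It was 3 whichever mouse was left out, with Fabp4 or Ffar4 lost. It was also 3 without dim probe sets, where Ffar4 was removed and not tested. Only Cd36 and Slc27a1 passed in every alternative. In SAT the count of 1 was 3 in 1 fit for all arrays, 2 with an intensity trend, 0 after quantile normalization, 2 without dim probe sets, 3 with array weights, 0 to 3 with each mouse left out, and 2 both without the SAT arrays of animals 11 and 20 and with the muscle mean as a covariate. Over all 22206 probe sets the unadjusted count in SAT was 1121, against 4761 with array weights, 4045 without those SAT arrays and 551 to 2722 with each mouse left out. The methods' t-test again gave 1 there, which was Ffar4 and not Fabp5. With array weights Fabp5 passed the adjusted threshold (-1.05, adjusted p = 0.0441 by limma), as did 355 of all probe sets. The SAT weights were 4.46, 0.910 and 0.319 in HFD + LY animals 16, 18 and 20, and 1.26, 0.464 and 1.32 in HFD animals 8, 11 and 14. The weighted HFD + LY mean thus rested mostly on animal 16. With the animal as a block (consensus correlation 0.0915), which pairs the arrays of a mouse, 2 members passed in the interaction and 10 between the tissues, and no call changed. Over all alternatives and members, 9 calls between the tissues were lost. Those of Fabp3 and Slc27a4 with a mouse left out were among them. The interaction count of 2 was 3 after quantile normalization, with array weights, without animal 11 or 14, and without those SAT arrays. Differences near 0 changed sign, as did those of Fabp3 in SAT and in the interaction, whose intervals were wide. In SAT these were Cd36 (0.078 after quantile normalization, -0.087 to 0.052 with each mouse left out), Fabp2 (0.040 with the muscle covariate, -0.19 to 0.11 with each mouse left out), Fabp3 (-0.34 with array weights, -1.11 to 1.40 with each mouse left out), Slc27a1 (-0.011 with array weights and without the SAT arrays of animals 11 and 20, -0.035 to 0.13 with each mouse left out) and Slc27a4 (-0.14 to 0.0090 with each mouse left out). In LIV they were Fabp1 (-0.021 after quantile normalization, -0.023 to 0.036 with each mouse left out), Fabp3 (0.032 after quantile normalization, 0.029 after median centring, -0.082 to 0.13 with each mouse left out) and Slc27a4 (-0.0037 after quantile normalization, -0.050 to 0.10 with each mouse left out). In the interaction they were Fabp2 (0.055 with array weights, 0.0028 without the SAT arrays of animals 11 and 20, -0.23 to 0.0100 with each mouse left out), Fabp3 (0.25 with array weights, -1.47 to 1.16 with each mouse left out) and Fabp4 (0.14 with array weights, 0.035 without those SAT arrays, -0.35 to 0.064 with each mouse left out). The cause of these changes was not tested. A mean over a gene's probe sets could not be run, since each member has 1 probe set. No detection call was used, so the signals of Fabp1, Fabp2 and Slc27a2 in SAT and of Ffar4 in LIV have no known margin over background.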
